A study of Homo sapiens with 9 samples.

Results

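The genes described here encode the aminoacyl-tRNA synthetases, the enzymes that join each amino acid to its tRNA before the ribosome can use it. They were taken by name: 20 genes of the cytosolic enzymes and 16 genes of the mitochondrial enzymes, 36 of the 58735 genes in the count table. All 36 passed the filter on low counts, which kept 15232 genes. Gene symbols are those of the table, which gives the cytosolic alanine enzyme as AARS, for example. The members were chosen with earlier results of these data known, so counts over them are descriptions and carry no test of the list.

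RNA-seq was run on HEYA8, an established cell line from a human ovarian cancer, labelled as high-grade serous and wild type. Cells were treated for 24 h with sunitinib, a receptor tyrosine kinase inhibitor, with a substance labelled compound 32, or with the solvent DMSO, and 3 libraries were made for each. All 9 libraries carry the same batch label, all cells grew in DMEM with 10% FBS, and polyadenylated RNA was sequenced. Doses were not given in the sources used here, nor was any relation between compound 32 and sunitinib. Nothing in the labels says that the 3 libraries of a group came from separate cultures, so the p-values measure only the spread between these libraries, which may be technical.

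Synthetases fall into class I and class II by the fold of the catalytic domain, and each cytosolic enzyme usually has a separately encoded mitochondrial counterpart. GARS and KARS are exceptions, since each gene encodes both a cytosolic and a mitochondrial enzyme. Mitochondria charge glutamine tRNA indirectly, with the glutamate enzyme EARS2 followed by an amidotransferase made of QRSL1, GATB and GATC. In the cytosol a group of synthetases, with the scaffold proteins AIMP1, AIMP2 and EEF1E1, forms the multisynthetase complex. Uncharged tRNA activates the kinase GCN2, and the transcription factor ATF4, whose translation rises when eIF2 is phosphorylated, is known to induce many cytosolic synthetase genes together with amino acid transporters and biosynthetic enzymes.

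The libraries held 15498101 to 18006171 assigned counts under sunitinib, 15742908 to 17045113 under compound 32 and 15585347 to 16948191 under DMSO. Sunitinib replicate 3 stood apart. Ribosomal protein genes took 7.5% of its counts, against 4.09% to 4.94% in the other 8 libraries, and mitochondrially encoded genes 5.36%, against 3.42% to 3.92%. Replicate 3 lay above the mean of the other sunitinib libraries in 27 of 36 synthetases, and the median SD over members on the log2 CPM scale was 0.106 under sunitinib with it and 0.0285 without it, against 0.0362 under compound 32 and 0.0477 under DMSO. Of the markers of ovarian epithelium, PAX8 was at 113 to 136 CPM (counts scaled to a common library total), KRT8 at 622 to 888 CPM and KRT18 at 337 to 454 CPM, while MUC16 reached at most 0.322 CPM and CDH1 at most 0.129 CPM. The mesenchymal gene VIM was at 3230 to 4480 CPM. Among markers of other cell types PTPRC, CD3E, CD14 and HBA1 reached at most 0.579 CPM, HBB was at 0 counts in every library, PECAM1 stayed between 0.577 and 1.59 CPM, and CDH5 between 3.75 and 16.1 CPM.

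Under sunitinib, 10 of 20 cytosolic synthetase genes rose relative to DMSO and 2 fell, while 1 of 16 mitochondrial synthetase genes rose and 6 fell. The cytosolic genes that rose were WARS, SARS, CARS, AARS, GARS, MARS, YARS, NARS, IARS and EPRS. Those that fell were FARSA and FARSB, the 2 subunits of the cytosolic phenylalanine enzyme. Calls came from edgeR's quasi-likelihood test over all 15232 genes at a Benjamini-Hochberg adjusted p under 0.05. By the same rule 40.2% of all genes were called, 20.3% higher and 19.9% lower, so the 10 of 20 cytosolic genes higher stood above the background, and the 2 of 20 lower did not. Every sunitinib library lay above every DMSO library for 11 cytosolic genes and 1 mitochondrial gene, against 25.8% of all genes, and below for 4 and 7 genes, against 25.1%. The median log2 fold change was 0.15 over the cytosolic genes, -0.14 over the mitochondrial genes and 0.02 over all genes. In these bulk samples fewer cells with a transcript and less RNA per cell cannot be told apart.

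**Figure D1:**
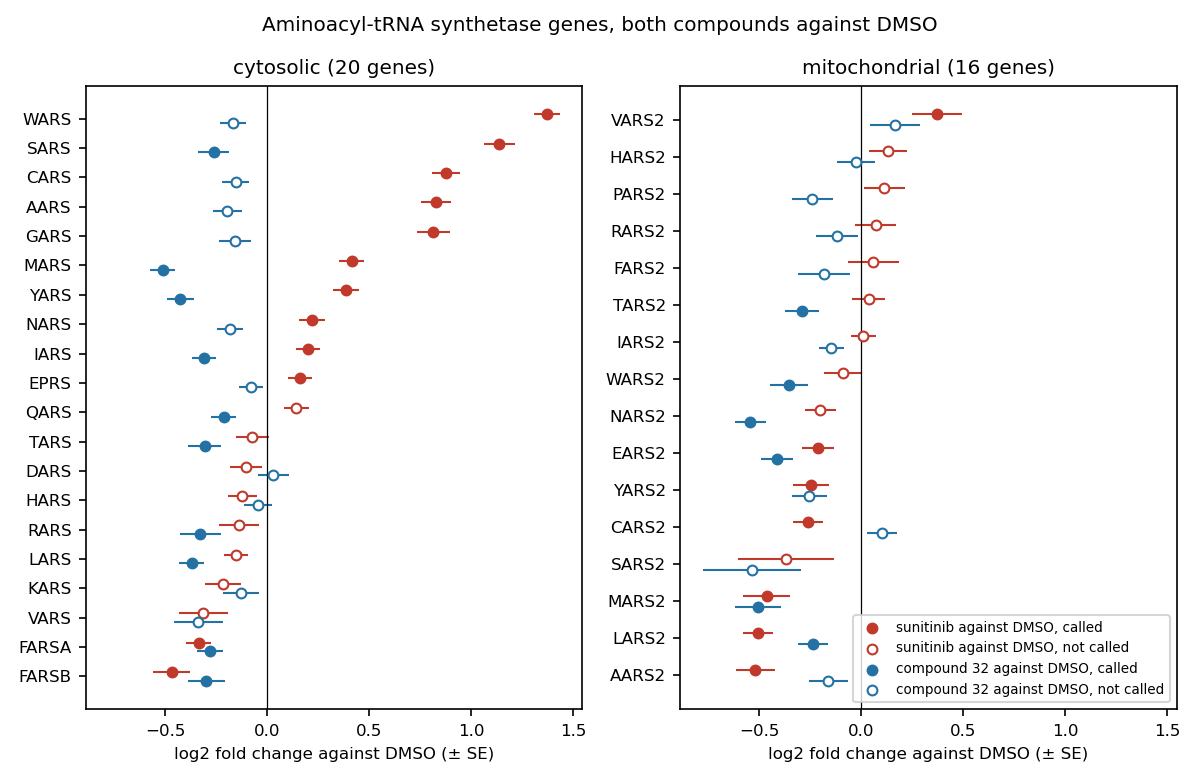
Log2 fold changes of all 36 synthetase genes, cytosolic and mitochondrial, against DMSO, for sunitinib and for compound 32, each with 1 standard error from the edgeR fit. The sunitinib values of the cytosolic genes run from -0.47 to 1.37, and the compound 32 values of the same genes from -0.51 to 0.03.

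WARS, the cytosolic tryptophan enzyme on chromosome 14 (hg38, 100333788 to 100376805), was at 345, 354 and 388 CPM in the sunitinib libraries, 127, 121 and 126 CPM with compound 32 and 139, 142 and 139 CPM with DMSO. SARS, the cytosolic serine enzyme, was at 427, 432 and 512 CPM in the sunitinib libraries, 175, 168 and 177 CPM with compound 32 and 207, 207 and 209 CPM with DMSO. For both genes the sunitinib libraries lay above all 6 others, with no overlap. Their log2 fold changes for sunitinib against DMSO were 1.37 ± 0.06 (SE; adjusted p = 7.5e-08, edgeR) for WARS and 1.14 ± 0.08 (SE; adjusted p = 8.13e-07, edgeR) for SARS. Both are outside the multisynthetase complex.

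CARS, the cysteine enzyme, was at 168, 173 and 192 CPM in the sunitinib libraries, 84.5, 87.3 and 88.8 CPM with compound 32 and 97.2, 93.5 and 99.4 CPM with DMSO. AARS, the alanine enzyme, was at 540, 541 and 473 CPM in the sunitinib libraries, 251, 264 and 250 CPM with compound 32 and 292, 280 and 303 CPM with DMSO. GARS, the glycine enzyme of both compartments, was at 428, 428 and 514 CPM in the sunitinib libraries, 236, 230 and 232 CPM with compound 32 and 268, 263 and 248 CPM with DMSO. Again no sunitinib library overlapped another group. Replicate 3 was the lowest sunitinib library for AARS and the highest for CARS and GARS. The log2 fold changes against DMSO were 0.88 ± 0.07 for CARS, 0.83 ± 0.07 for AARS and 0.82 ± 0.08 for GARS (SE; adjusted p = 2.22e-06, 5.86e-06 and 1.43e-05, edgeR). Without sunitinib replicate 3 they were 0.82 for CARS, 0.89 for AARS and 0.72 for GARS.

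MARS, the methionine enzyme, was at 334, 331 and 338 CPM in the sunitinib libraries, 167, 175 and 186 CPM with compound 32 and 253, 247 and 253 CPM with DMSO. YARS, the tyrosine enzyme, was at 290, 280 and 314 CPM in the sunitinib libraries, 166, 170 and 167 CPM with compound 32 and 233, 220 and 223 CPM with DMSO. IARS, the isoleucine enzyme, was at 535, 541 and 523 CPM in the sunitinib libraries, 376, 375 and 371 CPM with compound 32 and 470, 454 and 466 CPM with DMSO. These genes split the 3 conditions, with sunitinib highest, DMSO between and compound 32 lowest, and no overlap. The sunitinib changes were 0.41 ± 0.06 for MARS, 0.39 ± 0.06 for YARS and 0.20 ± 0.06 for IARS on the log2 scale (SE; adjusted p = 2.84e-04, 5.86e-04 and 0.0165, edgeR). The asparagine enzyme NARS rose by 0.22 ± 0.06 (adjusted p = 0.0172, edgeR), and EPRS, which carries the glutamate and proline activities in a single protein, by 0.16 ± 0.06 (adjusted p = 0.0449, edgeR). The EPRS call was lost in 12 of the 18 alternative settings tried at the same threshold. Among them was leaving out any 1 library other than sunitinib replicate 3. The NARS call was lost in 4 settings, among them without DMSO replicate 2 or 3, and the IARS call in 5. All 3 calls were lost when only the sunitinib and DMSO libraries were fitted. The calls of the other 7 higher cytosolic genes held in all 18 settings.

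**Figure D2:**
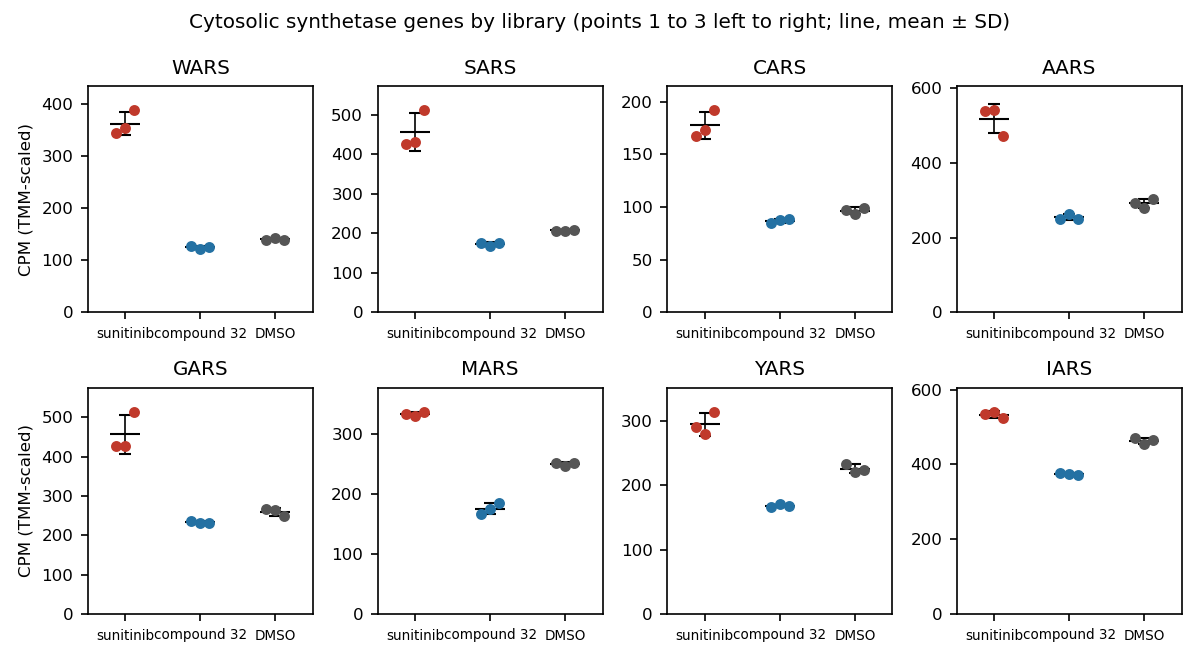
CPM of 8 cytosolic synthetase genes in each library, with sunitinib, compound 32 and DMSO from left to right, points for libraries, a line at the mean of 3 and bars of 1 SD. For WARS the sunitinib libraries sit at 345 to 388 CPM and the DMSO libraries at 139 to 142 CPM, and for MARS the compound 32 libraries at 167 to 186 CPM lie below both other groups.

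Both subunits of the phenylalanine enzyme were lower. FARSA, the catalytic subunit, was at 84.6, 86.7 and 85.8 CPM in the sunitinib libraries, 89.0, 87.9 and 90.5 CPM with compound 32 and 101, 111 and 112 CPM with DMSO. FARSB was at 76.1, 73.5 and 95.8 CPM in the sunitinib libraries, 89.3, 91.7 and 94.5 CPM with compound 32 and 112, 115 and 112 CPM with DMSO. Every treated library of either substance lay below every DMSO library for both subunits. The sunitinib changes were -0.34 ± 0.06 for FARSA and -0.47 ± 0.09 for FARSB on the log2 scale (SE; adjusted p = 0.00123 and 0.00182, edgeR).

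The 8 cytosolic genes that passed no threshold under sunitinib were DARS, HARS, KARS, LARS, QARS, RARS, TARS and VARS, with log2 fold changes between -0.31 for VARS and 0.14 for QARS. Of these, HARS, the histidine enzyme, was at 81.2, 87.7 and 93.1 CPM in the sunitinib libraries, 91.0, 88.5 and 96.8 CPM with compound 32 and 92.5, 95.9 and 96.4 CPM with DMSO, and the groups overlapped. KARS, which like GARS serves both compartments, was at 170, 170 and 213 CPM in the sunitinib libraries and 212, 206 and 223 CPM with DMSO, a change of -0.21 ± 0.09 (adjusted p = 0.0716, edgeR). VARS, the valine enzyme, was at 170, 172 and 119 CPM in the sunitinib libraries and 183, 188 and 202 CPM with DMSO, with replicate 3 the lowest of the 6. The count of lower genes depended on that library. Without sunitinib replicate 3, the 10 higher genes were the same, and 9 genes were lower: FARSA, FARSB, DARS, HARS, KARS, LARS, RARS, TARS and VARS. The log2 fold change of VARS was then -0.16, smaller than with the library, while KARS had -0.33 and RARS -0.29, against -0.21 and -0.14 with it. QARS, the glutamine enzyme, then remained uncalled at 0.10 (adjusted p = 0.0631, edgeR).

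By role, 3 of 8 genes in the multisynthetase complex rose under sunitinib (EPRS, IARS and MARS) and none fell, with a median log2 fold change of 0.02. Of the 12 cytosolic genes outside it, 7 rose and 2 fell, with a median of 0.30. By catalytic class, 5 of 9 class I genes rose, and 4 of 10 class II genes rose and 2 fell, with EPRS holding a domain of each class. The shares over all genes were 20.3% higher and 19.9% lower, and these differences between subgroups were not tested.

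Promoter windows of the cytosolic genes are shown because many of those that rose hold the same short word. The word searched was TGATGNAA on both strands, the C/EBP-ATF composite element that ATF4 is known to bind with C/EBP proteins. The windows, from RefSeq on GRCh38.p14, run from 250 bases before to 50 after a gene's start, 300 bases in all, and 30 of the 36 genes had at least 1. Of the 9 genes with a window that rose under sunitinib, 6 held the word, and of the 7 other cytosolic genes with a window only TARS did. That split depends on the calls. Those of IARS and NARS, which hold the word, were lost in 5 and 4 of 18 alternative settings. The call of EPRS, which does not hold it, was lost in 12. Among mitochondrial genes 1 of 14 did. Over the whole table, 1217 of 27305 genes held it, or 4.46%. Counted by window, since some genes have more than 1, it was in 33.3% of the 21 cytosolic windows, against 3.62% of all 35116 windows. The runs below are 40 bases from the strand of the gene, 5′ to 3′, with the matching word in capitals.
AARS (chr16:70289678-70289717, minus strand): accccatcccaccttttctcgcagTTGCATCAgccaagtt
CARS (chr11:3057410-3057449, minus strand): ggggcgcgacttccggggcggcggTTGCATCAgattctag
GARS (chr7:30594821-30594860, plus strand): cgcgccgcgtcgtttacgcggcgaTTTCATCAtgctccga
IARS (chr9:92293695-92293734, minus strand): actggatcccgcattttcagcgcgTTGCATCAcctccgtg
MARS (chr12:57488040-57488079, plus strand): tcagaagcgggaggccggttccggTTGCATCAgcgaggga
NARS (chr18:57621807-57621846, minus strand): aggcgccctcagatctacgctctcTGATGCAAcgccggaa
TARS (chr5:33440943-33440982, plus strand): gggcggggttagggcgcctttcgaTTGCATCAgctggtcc
YARS2 (chr12:32756079-32756118, minus strand): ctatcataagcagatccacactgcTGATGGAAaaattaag

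Of the 8, NARS and YARS2 carry the word on the strand of the gene and the other 6 on the opposite strand. GARS and IARS hold it wholly before the start, with its first base 33 and 13 bases before it, and the AARS match begins 187 bases before the start. In CARS and MARS the word straddles the start. WARS and SARS, the genes with the highest sunitinib changes, have no match in their windows, which says only that these letters are not in that stretch. TARS holds the word and was at 427, 427 and 514 CPM in the sunitinib libraries, 391, 379 and 394 CPM with compound 32 and 498, 471 and 469 CPM with DMSO, and the sunitinib and DMSO libraries overlapped. The E-box CACGTG was in 1 of 21 cytosolic and 4 of 18 mitochondrial windows, against 7.26% of all windows. Of those mitochondrial windows, 2 are overlapping windows of EARS2 that hold the same match. The palindromic NRF1 site was in 0 of 21 cytosolic and 1 of 18 mitochondrial windows, against 1.24% of all windows. A match is a description of the letters and not of binding.

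Of the mitochondrial synthetases, LARS2, AARS2, MARS2, CARS2, EARS2 and YARS2 fell under sunitinib and VARS2 rose, within a range of log2 fold changes from -0.52 to 0.37. LARS2, the leucine enzyme, was at 57.7, 58.7 and 49.5 CPM in the sunitinib libraries, 64.6, 66.8 and 68.7 CPM with compound 32 and 77.8, 79.6 and 78.6 CPM with DMSO. AARS2, the alanine enzyme, was at 26.5, 22.6 and 20.9 CPM in the sunitinib libraries, 29.8, 28.4 and 31.8 CPM with compound 32 and 32.1, 34.6 and 34.0 CPM with DMSO. For both genes all 6 treated libraries lay below DMSO, and the sunitinib libraries were the lowest. The sunitinib changes were -0.51 ± 0.07 for LARS2 and -0.52 ± 0.10 for AARS2 on the log2 scale (SE; adjusted p = 2.69e-04 and 0.00126, edgeR).

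MARS2, the methionine enzyme, was at 21.1, 22.2 and 15.8 CPM in the sunitinib libraries, 19.1, 19.6 and 18.8 CPM with compound 32 and 27.5, 26.7 and 27.4 CPM with DMSO. CARS2, the cysteine enzyme, was at 37.5, 37.1 and 43.5 CPM in the sunitinib libraries, 50.1, 50.1 and 51.6 CPM with compound 32 and 46.6, 48.3 and 46.6 CPM with DMSO. MARS2 was lower in both treatments, while for CARS2 only the sunitinib libraries lay below DMSO. The sunitinib changes were -0.46 ± 0.11 for MARS2 and -0.26 ± 0.08 for CARS2 (SE; adjusted p = 0.00696 and 0.017, edgeR). EARS2 fell by 0.21 ± 0.08 and the tyrosine enzyme YARS2 by 0.25 ± 0.09 on the log2 scale (SE; adjusted p = 0.0483 and 0.0415, edgeR). Those calls were lost in 14 and 12 of 18 alternative settings. Without DMSO replicate 2 or sunitinib replicate 2, 3 mitochondrial genes were lower in place of 6, and CARS2 was also lost without sunitinib replicate 1.

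VARS2, the valine enzyme, was the mitochondrial gene that rose. It was at 30.1, 36.2 and 24.6 CPM in the sunitinib libraries, 24.8, 28.0 and 26.2 CPM with compound 32 and 23.5, 23.8 and 23.0 CPM with DMSO. The sunitinib libraries spread widely, with replicate 3 just above the DMSO range, and the change was 0.37 ± 0.12 (SE; adjusted p = 0.031, edgeR). Its exons share 22% of their bases with GTF2H4 on the same strand, so reads in that stretch cannot be told apart. Only 43 counts in all went to GTF2H4. How reads that match both genes were counted was not given, so that count does not show how much GTF2H4 adds to VARS2. The call was lost in 7 of 18 alternative settings, among them leaving out any 1 of the DMSO libraries, sunitinib replicate 1 or 2, or compound 32 replicate 3.

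The other 9 mitochondrial genes passed no threshold under sunitinib. Among them HARS2, the neighbour of HARS on the opposite strand, was at 33.1, 30.0 and 38.5 CPM in the sunitinib libraries, 29.7, 30.4 and 30.8 CPM with compound 32 and 29.7, 30.9 and 32.1 CPM with DMSO, and the groups overlapped. IARS2, the isoleucine enzyme, was at 141, 130 and 139 CPM in the sunitinib libraries and 136, 130 and 142 CPM with DMSO, a difference of 0.01 with a 95% interval of -0.127 to 0.146. SARS2, the serine enzyme, had 341 counts over all 9 libraries and shares 46.2% of its exon bases with a readthrough gene, AC011455.2, which had 1 count. SARS2 also shares 10.8% of its exon bases with MRPS12 on the opposite strand, which had 6817 counts. Whether counting used strand was not given, so the SARS2 values are uncertain.

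**Figure D3:**
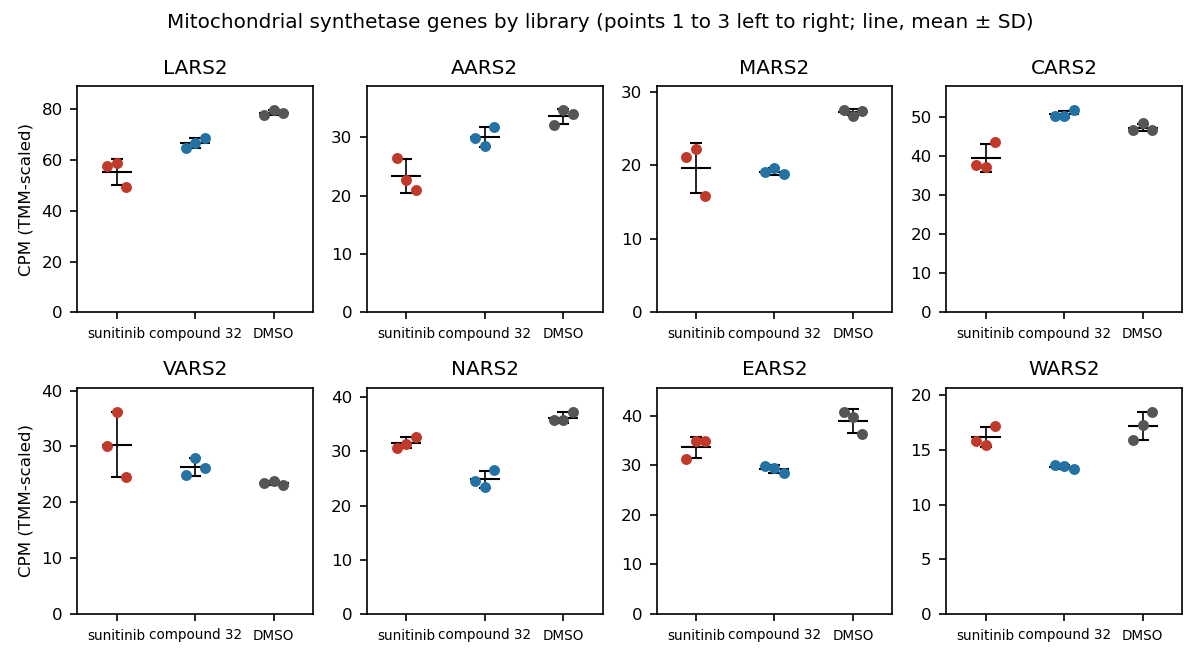
CPM of 8 mitochondrial synthetase genes in each library, with sunitinib, compound 32 and DMSO from left to right, points for libraries, a line at the mean of 3 and bars of 1 SD. LARS2 sits at 49.5 to 58.7 CPM under sunitinib and 77.8 to 79.6 CPM under DMSO, whereas NARS2 is lowest under compound 32, at 23.5 to 26.5 CPM.

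Under compound 32, no synthetase gene of either compartment rose relative to DMSO, and 10 of 20 cytosolic and 6 of 16 mitochondrial genes fell. Of all genes, 22.3% were called in this comparison, 12% higher and 10.3% lower. At an unadjusted p under 0.05 the count of higher genes was also 0 in both compartments, and it was 0 with DESeq2 and with limma-voom. At that unadjusted level 15 cytosolic and 10 mitochondrial genes were lower. The median log2 fold change was -0.24 over the cytosolic and -0.24 over the mitochondrial genes, against -3e-04 over all genes. In 17 of 20 cytosolic genes and 12 of 16 mitochondrial genes every compound 32 library lay below every DMSO library, which was so for 24.4% of all genes. The opposite held for CARS2 and VARS2, and for 24.7% of all genes.

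The cytosolic genes that fell were MARS, YARS, LARS, RARS, IARS, TARS, FARSB, FARSA, SARS and QARS. The decreases of MARS and YARS, whose library values are given above, were -0.51 ± 0.06 for MARS and -0.42 ± 0.06 for YARS (SE; adjusted p = 1.71e-04 and 7.49e-04, edgeR). LARS, the leucine enzyme, was at 200, 207 and 215 CPM in the sunitinib libraries, 181, 179 and 174 CPM with compound 32 and 237, 221 and 233 CPM with DMSO. QARS was at 151, 145 and 161 CPM in the sunitinib libraries, 115, 122 and 120 CPM with compound 32 and 135, 140 and 139 CPM with DMSO. In both, the compound 32 libraries were the lowest of the 9. The decreases were -0.37 ± 0.06 for LARS, -0.31 ± 0.06 for IARS, -0.31 ± 0.08 for TARS and -0.21 ± 0.06 for QARS (SE; adjusted p = 0.0013, 0.00311, 0.0179 and 0.0292, edgeR). FARSA and FARSB differed from DMSO by -0.28 ± 0.06 and -0.30 ± 0.09 (SE; adjusted p = 0.00761 and 0.036, edgeR), and SARS by -0.26 ± 0.08 (SE; adjusted p = 0.0294, edgeR). WARS had a value of -0.17 ± 0.06 and did not pass (adjusted p = 0.085, edgeR).

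These counts also depended on sunitinib replicate 3, since all 9 libraries share the estimate of the spread. Without it, 17 cytosolic and 8 mitochondrial genes were lower under compound 32, and none was higher. Fitting only the compound 32 and DMSO libraries also gave 17 lower cytosolic genes. Without any 1 of the DMSO or compound 32 libraries the calls of FARSB, QARS, RARS and SARS were lost, and without any of them but DMSO replicate 3 that of TARS. That left 6 lower cytosolic genes without DMSO replicate 3 and 5 without each of the other 5 libraries. The lower mitochondrial genes numbered 3 without DMSO replicate 2, DMSO replicate 3 or any compound 32 library. The calls of FARSA, IARS, LARS, MARS and YARS held in all 18 alternative settings tried at the same threshold.

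By role, 5 of 8 genes of the multisynthetase complex and 5 of 12 genes outside it fell under compound 32, with medians of -0.26 and -0.23. The share over all genes was 10.3% lower, and the difference between these subgroups was not tested. MARS, YARS, IARS and SARS were called in opposite directions by the 2 treatments, higher under sunitinib and lower under compound 32. Both comparisons use the same DMSO libraries. The opposite calls of MARS and YARS held in all 18 alternative settings, while the sunitinib call of IARS was lost without any 1 DMSO library (adjusted p up to 0.154 over the alternatives, edgeR) and the compound 32 call of SARS as above (up to 0.109).

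Among the mitochondrial genes, NARS2, the asparagine enzyme, was at 30.6, 31.4 and 32.6 CPM in the sunitinib libraries, 24.5, 23.5 and 26.5 CPM with compound 32 and 35.7, 35.7 and 37.3 CPM with DMSO. EARS2 was at 31.2, 34.8 and 34.9 CPM in the sunitinib libraries, 29.9, 29.4 and 28.4 CPM with compound 32 and 40.8, 39.8 and 36.3 CPM with DMSO. For both the compound 32 libraries were the lowest of the 9. The decreases relative to DMSO were -0.54 ± 0.08 for NARS2, -0.41 ± 0.08 for EARS2 and -0.51 ± 0.11 for MARS2 (SE; adjusted p = 4.56e-04, 0.00337 and 0.00855, edgeR), and these calls held in all 18 alternative settings.

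WARS2, the tryptophan enzyme, was at 15.8, 15.5 and 17.2 CPM in the sunitinib libraries, 13.6, 13.5 and 13.3 CPM with compound 32 and 15.9, 17.3 and 18.5 CPM with DMSO. TARS2, the threonine enzyme, was at 39.3, 36.4 and 37.1 CPM in the sunitinib libraries, 31.2, 30.0 and 28.8 CPM with compound 32 and 33.4, 36.6 and 40.1 CPM with DMSO. Compound 32 lay below DMSO without overlap in both, and sunitinib overlapped DMSO in both. The compound 32 changes were -0.36 ± 0.09 for WARS2, -0.29 ± 0.08 for TARS2 and -0.24 ± 0.07 for LARS2 (SE; adjusted p = 0.0193, 0.0274 and 0.039, edgeR). CARS2 and VARS2 had positive values of 0.10 and 0.17 that did not pass (adjusted p = 0.378 and 0.379, edgeR).

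Set directly against sunitinib, compound 32 left 13 of 20 cytosolic synthetase genes lower and none higher, against 25.2% of all genes lower and 24.1% higher, 49.2% in all. The count of higher cytosolic genes was also 0 at an unadjusted p under 0.05, with DESeq2 and with limma-voom. Without overlap, compound 32 lay below sunitinib for 14 cytosolic and 7 mitochondrial genes, against 29% of all genes, and above it for 1 and 3 genes, against 27.8%. The largest differences, compound 32 minus sunitinib on the log2 scale, were -1.54 ± 0.06 for WARS, -1.40 ± 0.08 for SARS, -1.03 ± 0.07 for CARS and -1.02 ± 0.07 for AARS (SE; adjusted p = 1.3e-08, 8.77e-08, 3.45e-07 and 6.34e-07, edgeR). GARS, MARS and YARS followed at -0.97, -0.93 and -0.81. The 7 genes not called were DARS, FARSA, FARSB, HARS, KARS, RARS and VARS. Their 95% intervals were narrowest for FARSA, at -0.079 to 0.192, and widest for VARS, at -0.287 to 0.237, so differences of that size were not resolved here. Without sunitinib replicate 3, DARS, FARSB, HARS and KARS were higher under compound 32 than under sunitinib, and 14 genes were lower. Of the 13 calls, that of TARS was lost in 6 and that of LARS in 2 of 18 alternative settings, TARS without DMSO replicate 2 or 3 or any compound 32 library and LARS without compound 32 replicate 3.

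In the mitochondrial set of 16 genes, 3 were higher under compound 32 than under sunitinib and 4 were lower. The shares over all genes were 24.1% higher and 25.2% lower, so neither count stood above the background. CARS2, AARS2 and LARS2 were higher, by 0.36 ± 0.08, 0.36 ± 0.10 and 0.27 ± 0.07 (SE; adjusted p = 0.00199, 0.00908 and 0.0104, edgeR). PARS2, NARS2, TARS2 and WARS2 were lower, at -0.35, -0.34, -0.33 and -0.27. The WARS2 call was lost in 10 of 18 alternative settings (adjusted p up to 0.185, edgeR and the other tools), among them leaving out DMSO replicate 2, sunitinib replicate 1 or 3, or any compound 32 library. The PARS2 call was lost without a filter, and the LARS2 call with upper-quartile scaling and with library totals. MARS2, lower than DMSO in both treatments, differed between them by -0.04, with a 95% interval of -0.294 to 0.211. The median difference was -0.30 over the cytosolic, -0.18 over the mitochondrial and -0.03 over all genes.

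Averaged over members, each library's mean log2 level relative to the DMSO mean gave the same order. The cytosolic genes were at 0.183, 0.196 and 0.306 in the sunitinib libraries, -0.246, -0.250 and -0.213 with compound 32 and 0.002, -0.010 and 0.008 with DMSO. The mitochondrial genes were at -0.093, -0.165 and -0.155 in the sunitinib libraries, -0.252, -0.225 and -0.225 with compound 32 and -0.032, -0.004 and 0.036 with DMSO. The compartments thus lay apart in the sunitinib libraries, whereas in the compound 32 libraries they lay close together. The cytosolic mean less the mitochondrial mean was 0.276, 0.361 and 0.460 with sunitinib, 0.007, -0.025 and 0.013 with compound 32 and 0.034, -0.007 and -0.028 with DMSO. Cytosolic synthetases took 0.545% to 0.556% of all counts under sunitinib, 0.351% to 0.357% under compound 32 and 0.415% to 0.427% under DMSO. Mitochondrial synthetases took 0.0562% to 0.0596% under sunitinib, 0.0524% to 0.0536% under compound 32 and 0.0597% to 0.0621% under DMSO.

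**Figure D4:**
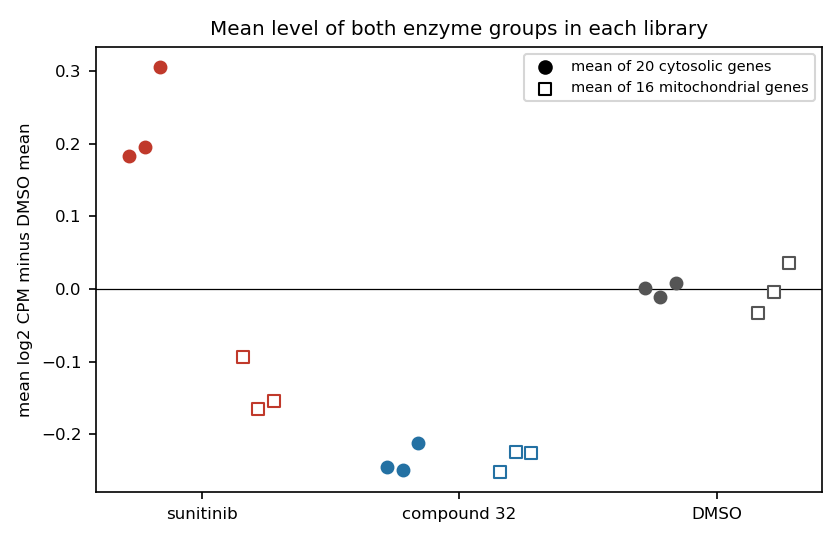
Mean log2 CPM of the 20 cytosolic and of the 16 mitochondrial synthetase genes in each library, relative to the mean of the DMSO libraries. The sunitinib libraries lie above DMSO for the cytosolic genes (0.183 to 0.306) and below it for the mitochondrial genes (-0.165 to -0.093), and the compound 32 libraries lie below DMSO for both.

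Cytosolic and mitochondrial enzymes for the same amino acid could be set side by side in 15 pairs, of which FARSA and FARSB share the partner FARS2. The log2 ratio of their CPM per kb was higher under sunitinib than under DMSO in 9 pairs and lower in 6, with a median difference of 0.36. Under compound 32 it was higher in 3 pairs and lower in 12, with a median difference of -0.09. Without overlap with the DMSO libraries, the ratio was higher in 9 pairs and lower in 5 under sunitinib. For compound 32 it was higher in 3 pairs and lower in only 4 without overlap, and the other lower pairs overlapped DMSO. No share was computed for ratios between other genes, so these pair counts have no background beside them. The differences for sunitinib were 1.46 for WARS to WARS2, 1.35 for AARS to AARS2, 1.14 for CARS to CARS2 and 0.90 for MARS to MARS2. In these pairs the cytosolic gene rose, and AARS2, CARS2 and MARS2 fell while WARS2 was not called. The pair SARS to SARS2 had 1.57, which rests on the uncertain SARS2. At the other end, VARS to VARS2 had -0.68, with VARS below DMSO in every sunitinib library and VARS2 above it.

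**Figure D5:**
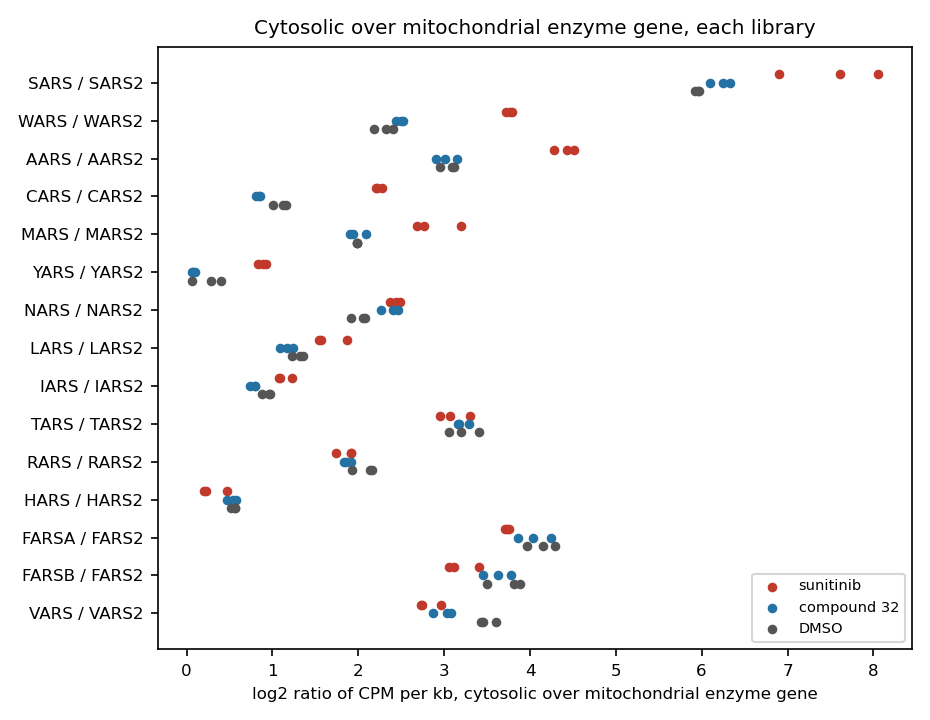
Log2 ratio of CPM per kb of the cytosolic to the mitochondrial enzyme of the same amino acid, for 15 pairs in each library, with sunitinib, compound 32 and DMSO. The WARS to WARS2 ratio is 1.46 higher under sunitinib than under DMSO and the VARS to VARS2 ratio 0.68 lower.

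Levels per gene length were compared as CPM per kb, using the exon length that the table gives for each gene. The median over the cytosolic genes was 46.5 CPM per kb under sunitinib, 32.0 under compound 32 and 40.1 under DMSO. The median over the mitochondrial genes was 6.2 CPM per kb under sunitinib, 6.67 under compound 32 and 8.04 under DMSO. In DMSO the highest cytosolic levels were those of TARS at 83.8, AARS at 64.9, IARS at 62.6 and GARS at 62.5 CPM per kb, where IARS and GARS lay within their spread, and the lowest was that of CARS at 9.64. IARS2 led the mitochondrial genes at 32.7 CPM per kb in DMSO, and SARS2 was lowest at 0.877. Under sunitinib SARS, AARS and GARS passed TARS, at 119, 115 and 110 CPM per kb, against 79.7 for TARS. The annotated exon length counts all isoforms, so it can exceed the transcripts these cells make.

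Other genes of tRNA charging were read from lists chosen by name. Of the 3 scaffold genes of the multisynthetase complex, none was called under sunitinib, and under compound 32 AIMP2 fell by 0.49 ± 0.09 (adjusted p = 0.00321, edgeR). AIMP2 was at 38.0, 41.2 and 41.5 CPM with sunitinib, 31.1, 26.5 and 33.9 CPM with compound 32 and 41.3, 44.3 and 43.0 CPM with DMSO. Of 10 other charging genes, 1 rose under sunitinib and 1 fell, and under compound 32 none rose and 4 fell. Over all genes 20.3% rose and 19.9% fell under sunitinib, and 12% rose and 10.3% fell under compound 32. DTD1, which removes D-amino acids from tRNA, rose by 0.79 ± 0.17 under sunitinib (adjusted p = 0.00284, edgeR), at 19.2, 19.5 and 30.6 CPM with sunitinib and 14.4, 12.2 and 13.4 CPM with DMSO.

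All 3 amidotransferase genes fell under compound 32, QRSL1 by 0.39 ± 0.09, GATB by 0.38 ± 0.08 and GATC by 0.38 ± 0.12 (SE; adjusted p = 0.00788, 0.00428 and 0.0477, edgeR). With EARS2, every gene of the indirect route to mitochondrial glutamine tRNA was thus lower under compound 32 than under DMSO. Under sunitinib QRSL1 fell by 0.32 ± 0.09 (adjusted p = 0.0122, edgeR), while GATB and GATC had values of 0.10 and -0.11 and did not pass. SEPSECS, which makes selenocysteine on its tRNA, fell by 0.52 ± 0.12 under compound 32 (adjusted p = 0.011, edgeR).

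Of 25 genes listed as ATF4 and its targets outside tRNA charging, 24 rose under sunitinib and none fell, with a median log2 fold change of 1.08. Under compound 32, 5 of the 25 rose and 4 fell, with a median of -0.08. Over all genes, 20.3% rose and 19.9% fell under sunitinib, and 12% rose and 10.3% fell under compound 32. ATF4 itself was at 353, 355 and 515 CPM in the sunitinib libraries, 293, 290 and 304 CPM with compound 32 and 327, 331 and 291 CPM with DMSO. Its level rose by 0.37 ± 0.13 under sunitinib (adjusted p = 0.0393, edgeR), with replicate 3 far above the other libraries, and it was not called under compound 32 at -0.10 (adjusted p = 0.648, edgeR). A list of 8 integrated stress response kinases and phosphatases had 2 genes higher and 3 lower under sunitinib. Under compound 32 it had 1 higher and 2 lower, to be set beside the same shares over all genes. EIF2AK4 and IMPACT belong to that list. EIF2AK4, which encodes GCN2, fell in both treatments, by 0.21 ± 0.07 under sunitinib and by 0.35 ± 0.07 under compound 32 (adjusted p = 0.0425 and 0.00654, edgeR). IMPACT, an inhibitor of GCN2, was called in opposite directions, at 0.67 ± 0.08 under sunitinib and -0.31 ± 0.08 under compound 32 (adjusted p = 4.36e-05 and 0.0154, edgeR).

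Lists of other translation genes were read in the same way. The shares over all genes to set beside them were 20.3% higher and 19.9% lower under sunitinib. For compound 32 they were 12% higher and 10.3% lower. Of 27 cytosolic translation factor genes tested, 4 rose and 11 fell under sunitinib, and 1 rose and 8 fell under compound 32, with medians of -0.16 and -0.14. Of 12 mitochondrial translation factor genes, 1 rose and 2 fell under sunitinib, and none rose and 2 fell under compound 32, with medians of 0.02 and -0.14. Of 78 mitochondrial ribosomal protein genes, 7 rose and 15 fell under sunitinib and none rose and 14 fell under compound 32, with medians of -0.02 and -0.14. For sunitinib the 15 of 78 lower genes are close to the background share of all genes.

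Several members share exon bases with neighbours, and whether counting used strand was not given in the sources used here. MARS shares 5.05% of its exon bases with DDIT3 on the opposite strand, a stress gene with a log2 fold change of 1.86 ± 0.25 under sunitinib (adjusted p = 1.97e-04, edgeR). Over all libraries MARS had 37269 counts and DDIT3 3742. HARS shares 5.56% and HARS2 11.7% of their exon bases with each other, and EARS2 6.46% with UBFD1. Apart from overlapping neighbours, no other gene shared more than 0.451% of a member's 50-base words.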

How the data were processed

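RNA-seq was made from HEYA8 cells after 24 h with sunitinib, compound 32 or DMSO, 3 libraries each. The deposited table holds raw counts per gene, 15498101 to 18006171 per library, with an exon length per gene that was used only for CPM per kb. Per the submitters' processing notes the tools were fastp, HISAT2 2.0.5, featureCounts, DESeq2 and edgeR, with no roles given, and the builds hg38 and mm10; the coordinates of all 36 members equal GENCODE 29. The strand setting and the handling of reads that match several genes were not given in the sources used here.

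Counts were fitted here with edgeR 4.0.16 in R 4.3.3 by the robust quasi-likelihood F test on group means over all 9 libraries, with TMM scaling and filterByExpr, which left 15232 of 58735 genes and 6 residual degrees of freedom. P-values were adjusted by Benjamini-Hochberg over those genes and called under 0.05. The SE is the log2 fold change divided by the square root of F. The fit was tested on simulated data. Alternatives used DESeq2 1.42.0, limma 3.58.1 (voom), other scalings and filters, a replicate block, only 6 libraries, and each library left out. Motifs were searched in RefSeq promoter windows.

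Members and lists were chosen with earlier results of these data known. All 36 members may be named; library values are given for the 8 cytosolic and 5 mitochondrial members with the smallest p in each comparison with DMSO, for members called in opposite directions, and for HARS and HARS2, with others added where a result turns on them after their values were seen. 1 gene of the charging list is not reported here.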

Additional observations from a re-analysis of the deposited data

How the results depend on the processing

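No value changed direction among called results. Of 2049 member values under alternatives, 1830 kept their side of the threshold, 150 lost the call, 69 gained it and 0 reversed. Among the 1830, 26 values that passed in neither fit changed sign. For sunitinib against DMSO, upper-quartile scaling gave 3 lower mitochondrial genes and medians of 0.236 (cytosolic) and -0.062 (mitochondrial); the mitochondrial median was -0.088 by library totals and -0.036 with genes kept above 5 CPM. Without a filter and with DESeq2, 4 cytosolic genes were lower. Leaving out 1 library gave 7 to 10 higher and 2 to 9 lower cytosolic genes. It gave 0 to 1 higher and 3 to 7 lower mitochondrial genes. Fitting 6 libraries gave 0 higher mitochondrial genes and lost the higher calls of EPRS, IARS and NARS. At an adjusted p under 0.01 there were 1857 higher genes in all, 0 higher and 3 lower mitochondrial genes. For compound 32 against DMSO, leaving out 1 library gave 1168 to 3359 higher and 968 to 3189 lower genes in all, 5 to 17 lower cytosolic and 3 to 8 lower mitochondrial genes; 6 libraries gave 3258 higher, 3114 lower and 17 lower cytosolic genes; an adjusted p under 0.01 gave 977, 738 and 5, and 3 lower mitochondrial genes. For compound 32 against sunitinib, lower mitochondrial genes numbered 9 with upper-quartile scaling, 8 by totals, 2 without a filter and 2 at 0.01; upper-quartile medians were -0.386 (cytosolic) and -0.265 (mitochondrial), and the mitochondrial median was -0.243 by totals and -0.234 above 5 CPM; leaving out 1 library gave 0 to 4 higher cytosolic genes. The causes were not tested, except that fewer libraries and a stricter threshold are built into those settings. Keeping genes above 5 CPM also left out SARS2, so the mitochondrial medians under that filter do not include it. Scalings moved the median of all genes by at most 0.086. With a replicate block, sunitinib against DMSO had 9 higher and 3 lower cytosolic and 1 higher and 4 lower mitochondrial genes. Compound 32 against DMSO had 9 lower cytosolic and 4 lower mitochondrial genes with that block. The deviations of each library from its group mean were correlated between groups. They correlated at -0.077 to 0.061 for libraries with the same number and at -0.061 to 0.088 for unlike numbers. These values gave no sign that the numbers pair the libraries. Genes of low count, SARS2 above all, have the widest errors.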
